A study of Mus musculus with 4 samples.

Results

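Sertoli cells are the somatic cells of the seminiferous tubule, and 10 genes by which they are commonly recognised were followed in RNA of sorted meiotic male germ cells of the mouse. The members were taken by name from a fixed list, namely *Sox9*, *Amh*, *Wt1*, *Gata4*, *Gata1*, *Clu*, *Rhox5*, *Cldn11*, *Inha* and *Fshr*. All 10 of 10 were found among the 24411 rows of each file. Testes were taken at postnatal day 18 from mice of a mixed C57BL/6 and CBA strain carrying *Rec8-3xFLAG-HA-p2A-GFP*, a knock-in which places GFP under the meiotic cohesin gene *Rec8*, and GFP-positive cells were sorted from them. RNA was sequenced from 2 *Zfp541*+/- controls and from 2 samples labelled *Zfp541* KO (the KO-labelled libraries), each from 1 testis. The KO allele is a CRISPR/Cas9 deletion made in C57BL/6 fertilized eggs that begins in the first exon and ends in a later intron, and the controls carry it on 1 chromosome. The knock-in was heterozygous in 1 of the controls and homozygous in the other and in both samples labelled *Zfp541* KO. The labels used here do not tell which control is which, so knock-in dose and the difference between the controls cannot be told apart.

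Sertoli cells span the tubule wall, nurse the germ cells and seal the meiotic compartment behind tight junctions. Their fate is set in the fetal gonad by SOX9 with WT1 and GATA4, and their work after birth is driven by FSH, through its receptor FSHR, and by testosterone. They do not enter meiosis, and REC8 is a cohesin of meiotic cells, so the sort was not designed to collect them. In a bulk sample of this kind, fewer cells of a type and less RNA per cell cannot be told apart, and the share of Sertoli cell RNA against transcription of these genes in germ cells was not tested.

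The members lie on 8 chromosomes of GRCm38, the assembly that UCSC calls mm10, and no other gene of the GENCODE annotation overlaps any of them. *Gata1* and *Rhox5* are X-linked. *Fshr* (ENSMUSG00000032937) is the longest at 215724 bases, on chromosome 17 from 88984952 to 89200675 on the reverse strand, with 10 exons in its longest transcript. *Amh* (ENSMUSG00000035262), on chromosome 10 from 80805243 to 80807648, is the shortest at 2406 bases with 5 exons. RefSeq start regions on GRCm38.p6, running from 250 bases before the start to 50 after it, were found for 5 of the 10 members. Those of *Fshr* and *Cldn11* are shown because theirs alone lay at the GENCODE start of the gene, and because their products carry the FSH response and the tight junction of the Sertoli cell. Capitals mark an E-box, CACGTG, the element through which the *Fshr* promoter is known to bind USF proteins.
Fshr, chr17:89200626-89200925, reverse strand: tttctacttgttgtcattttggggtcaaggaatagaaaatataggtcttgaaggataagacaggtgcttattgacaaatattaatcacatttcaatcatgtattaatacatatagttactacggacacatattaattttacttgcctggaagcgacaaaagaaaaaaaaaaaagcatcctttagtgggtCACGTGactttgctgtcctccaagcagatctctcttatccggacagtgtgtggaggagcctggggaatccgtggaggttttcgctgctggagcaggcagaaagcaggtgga
Cldn11, chr3:31149670-31149969, forward strand: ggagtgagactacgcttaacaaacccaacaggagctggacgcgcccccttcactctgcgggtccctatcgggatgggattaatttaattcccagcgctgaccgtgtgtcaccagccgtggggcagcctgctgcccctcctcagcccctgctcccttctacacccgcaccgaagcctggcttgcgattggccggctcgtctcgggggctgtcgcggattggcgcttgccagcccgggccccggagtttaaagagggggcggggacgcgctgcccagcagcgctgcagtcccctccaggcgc
The E-box of *Fshr* begins at base 190 of its window, and these letters stand in 7.15% of 32851 start regions of this length. It was not found in the window of *Cldn11*, which had a GC content of 66.3% against 40.7% for *Fshr*. GATA sites (AGATAA, also with G as the last letter or T as the first, on either strand, present in 29.8% of all start regions) and the NR5A1 site AAGGTCA (either strand, 4.72%) stood in none of the 5 windows. The SOX core ACAAT (either strand, 31% of all) was found once, in that of *Rhox5*. For *Rhox5*, *Gata1* and *Inha* the RefSeq window lay at another start than that of the GENCODE gene.

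The authors deposited expression as TPM, the share of each gene among the transcripts of a library after correction for transcript length. Levels can therefore be compared between genes, while the sequencing depth behind each value is unknown. The targeted gene *Zfp541* stood at 112 and 72.2 TPM in controls 1 and 2 and reached 136 and 151 TPM in the KO-labelled libraries 1 and 2. Its transcript level did not follow the label, and every direction below rests on the labels alone. The controls stood 153 apart in Euclidean distance over log2(TPM + 1), farther than any control from any KO-labelled library (111 to 133), whereas the KO-labelled libraries were 49.2 apart.

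The Sertoli cell genes spanned a wide range of levels, and their order was similar in every library. *Clu*, which encodes the secreted chaperone clusterin, was at 688 and 501 TPM in the control pair and 843 and 575 TPM in the KO-labelled libraries. It ranked first of the 10 in all 4 libraries, above 98.7% of the genes tested by mean level. *Inha*, the alpha subunit of inhibin, followed, then *Cldn11*, a tight junction claudin, and *Rhox5*, an X-linked homeobox gene under androgen control, and these places were likewise held in all 4 libraries. *Sox9* was at rank 9 and *Fshr* at rank 10 in each. The middle places changed, with *Gata4* at rank 5 in control 1 but at rank 8 in control 2 and rank 7 in the other libraries.

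**Figure D1:**
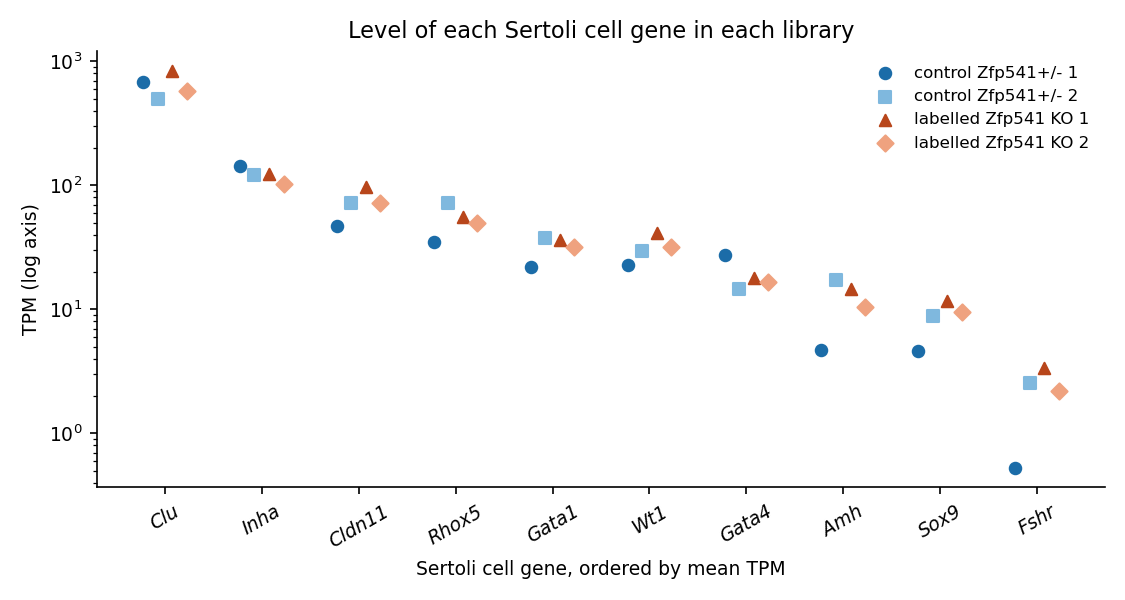
TPM of the 10 Sertoli cell genes on a log axis, with 1 point per library and the genes ordered by mean TPM. The points of control 1 are the lowest for 7 genes and the highest for *Inha* and *Gata4*.

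The summed level of the 10 members was 995 and 877 TPM in controls 1 and 2, and 1245 and 902 TPM in the KO-labelled libraries 1 and 2. The groups overlapped, with means of 936 ± 83.1 TPM (SD, n = 2) and 1073 ± 242 TPM (SD, n = 2), and an exact two-sided permutation test on the log2 sum gave p = 0.667, where this design allows no value below 0.33. *Clu* alone made up between 57.1% and 69.2% of the sum. Without *Clu* the sums were 307 and 376 TPM in the control pair and 402 and 327 TPM in the KO-labelled libraries, again with overlap (exact two-sided permutation p = 0.667).

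The Sertoli cell genes differed between the controls, mostly with control 1 at the lower end. Control 1 was the lowest of the 4 libraries in 7 of the 10 members, against 26.6% of the 14512 genes tested, and control 2 exceeded control 1 in the same 7, against 33.6%. *Amh*, anti-Müllerian hormone, which regresses the female duct in the male fetus and declines as Sertoli cells mature, was at 4.69 and 17.3 TPM in controls 1 and 2, then at 14.6 and 10.45 TPM in the KO-labelled libraries 1 and 2. The controls thus lay 3.69-fold apart and enclosed both other libraries. *Fshr* was at 0.53 and 2.57 TPM in the control pair and 3.36 and 2.19 TPM in the KO-labelled libraries, so that control 1 stood alone at the lower end, and the other control was 4.85-fold above it. *Rhox5* was at 34.8 and 71.7 TPM in the control pair and 55.3 and 49.5 TPM in the KO-labelled libraries. *Gata1*, a zinc finger factor of the red cell lineage that Sertoli cells also use, was at 21.9 and 37.3 TPM in the control pair and 36.1 and 31.99 TPM in the KO-labelled libraries. Both X-linked genes therefore had their lowest and their highest value in a control.

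*Gata4*, *Inha* and *Clu* ran the other way between the controls. *Gata4*, a factor of Sertoli cells that Leydig cells also express, was at 27.3 and 14.6 TPM in controls 1 and 2, then at 18.0 and 16.65 TPM in the KO-labelled libraries. Control 1 stood above the other 3 libraries, which lay close together. *Inha*, likewise made in Leydig cells, was at 143 and 122 TPM in the control pair and 124 and 103 TPM in the KO-labelled libraries, the narrowest spread of the 10, at 1.39-fold from lowest to highest. Control 1 was the highest library in 2 of the 10 members, against 32.2% of the genes tested, and control 2 the highest in 3, against 16.7%. Control 2 was the lowest in *Gata4* and *Clu*, 2 of the 10, against 53.4%. Set against the median member of the same library on the log2(TPM + 1) scale, *Gata4* lay 0.12 above it in control 1 and at -1.14, -1.06 and -0.90 in control 2 and the KO-labelled libraries 1 and 2, which shows an unequal change among the members and not which of them moved.

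Between the libraries labelled *Zfp541* KO, the Sertoli cell genes differed in one direction. All 10 members were higher in library 1 than in library 2 of that label, against 52.7% of the genes tested, by a median of 0.32 on the log2(TPM + 1) scale, where the median over all genes tested was 0.014. The ratio ran from 1.08 in *Gata4* to 1.53 in *Fshr*. With 1 library on each side, neither this difference nor that between the controls could be tested.

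Against this spread, no Sertoli cell gene was found to differ between the groups. On the log2(TPM + 1) scale, where changes at low TPM come out too small, limma over all 14512 genes averaging 1 TPM or more called 0 of the 10 members higher and 0 lower at an FDR of 0.05. The background was 0% of the genes tested in either direction. At an unadjusted p under 0.05 it called 0 of the 10 as well, against 10.7% of the genes tested that were higher and 3.73% that were lower. Adjusted p from limma ran from 0.484 in *Wt1* to 0.953 in *Rhox5*. The median log2 difference over the 10 members was 0.32, beside 0.28 over all genes tested. Without control 1 the members were at 0.14 and all genes at 0.45, and without control 2 at 0.63 and 0.15. In the fit of all 4 libraries, 8 of the 10 members were above 0, against 69% of all. With median-ratio scaling, which moved the median over all genes to -0.015, the members' median was -0.0068 and 5 of the 10 were above 0, against 49% of all.

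**Figure D2:**
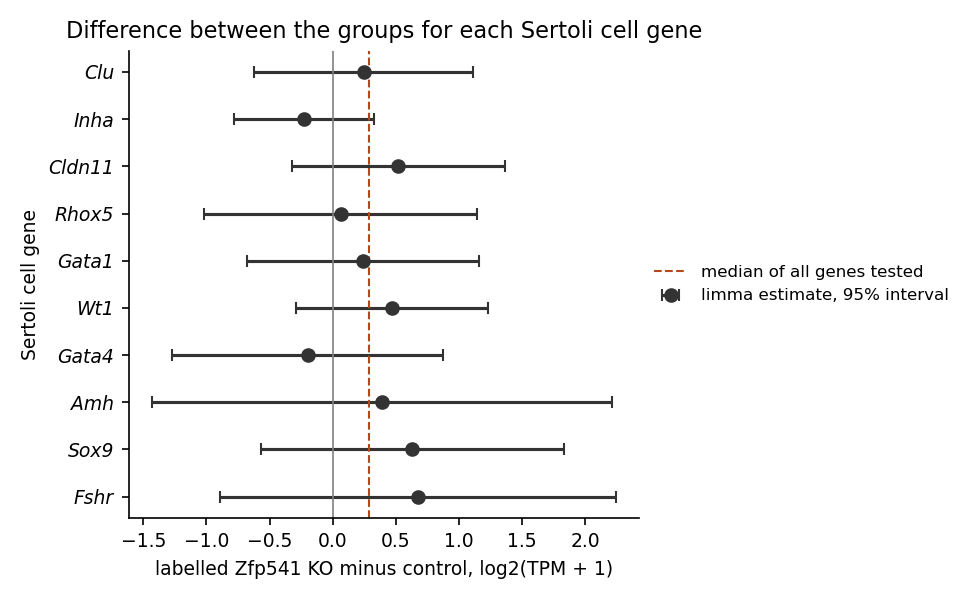
Difference of the KO-labelled libraries from the controls in log2(TPM + 1) for each Sertoli cell gene, as the limma estimate (point) with its 95% interval (bar). Every interval includes 0 and the median of all genes tested, drawn as a dashed line at 0.28.

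*Sox9* and *Wt1* were the members whose groups did not overlap. *Sox9*, the determinant of the Sertoli cell lineage, was at 4.61 and 8.84 TPM in the control pair and 11.6 and 9.48 TPM in the KO-labelled libraries. *Wt1*, the Wilms tumour factor that maintains Sertoli cell identity, was at 22.9 and 29.8 TPM in the control pair and 41.6 and 32.1 TPM in the KO-labelled libraries. Both KO-labelled libraries lay above both controls in each gene. Such separation was found in 2 of the 10 members, against 38.6% of the genes tested, and separation in the lower direction in 0 of the 10, against 12.1%. The log2 difference of *Sox9* was 0.63 (standard error 0.44, 95% interval -0.57 to 1.83, adjusted p = 0.542 from limma). That of *Wt1* was 0.47 (standard error 0.28, 95% interval -0.29 to 1.23). *Wt1os*, a noncoding gene that starts just before *Wt1* and runs the other way, was at 0.45 to 1.29 TPM. *Gata4* and *Gata1* differed by -0.20 and 0.24, with standard errors of 0.40 and 0.34.

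Among the hormone genes, the log2 difference of *Amh* was 0.39 with a 95% interval of -1.43 to 2.21, the widest of the 10. *Inha* was at 133 ± 14.8 TPM (SD, n = 2) in the control pair against 113 ± 14.7 TPM (SD, n = 2) in the KO-labelled libraries, a log2 difference of -0.23 with the narrowest interval of the 10, from -0.78 to 0.33. *Fshr* had a log2 difference of 0.67 with a 95% interval of -0.89 to 2.24, at a mean level above that of only 9.06% of the genes tested. This value depended on the pseudocount, at 1.12 with 0.1 TPM and 0.26 with 5 TPM, and on control 1, without which it was 0.063. *Rhox5*, the readout of androgen action, was at 53.3 ± 26.1 TPM (SD, n = 2) in the control pair against 52.4 ± 4.06 TPM (SD, n = 2) in the KO-labelled libraries. Its log2 difference of 0.063 had the other sign than the difference of these means, since it averages logarithms over controls that lay 2.06-fold apart.

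*Cldn11*, which forms the tight junction strands between Sertoli cells, was at 47.0 and 72.1 TPM in the control pair and 97.9 and 71.7 TPM in the KO-labelled libraries. The second library of each group had nearly the same level, and the log2 difference was 0.52 (standard error 0.31, 95% interval -0.33 to 1.36). *Clu* differed by 0.25 (95% interval -0.62 to 1.11), less than the distance of 0.55 between the KO-labelled libraries.

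Which control was kept decided the calls. Without control 1, limma called *Rhox5* lower in the KO-labelled libraries (log2 difference -0.45, adjusted p = 0.0449), 1 of the 10 members, against 40.5% of 14222 genes called higher and 10.3% called lower in that fit. Without control 2, *Sox9* (1.04, adjusted p = 0.0478), *Amh* (1.23, adjusted p = 0.0467) and *Rhox5* (0.57, adjusted p = 0.0476) were called higher, 3 of the 10, against 16.4% of 14622 genes called higher and 13.5% called lower. *Rhox5* was thus called in opposite directions according to the control, and in each of these fits the lone control was assumed to vary like the pair labelled *Zfp541* KO.

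A further 32 genes associated with Sertoli cells were listed by role, of which 27 were tested. At an FDR of 0.05, 0 passed in either direction, against 0% of all genes tested. Above 0 lay 20 and below it 7, against 69% of all genes tested above 0. Their median log2 difference was 0.25, beside 0.28 over all genes tested. Of these 27, 8 were higher without overlap between the groups and 1 lower, both smaller shares than those of all genes tested given above. Control 1 was the lowest library in 17 of the 27, against 26.6% of all genes tested. The first KO-labelled library exceeded the second in 24, against 52.7%. At an unadjusted p under 0.05, 2 of the 27 were higher and 1 lower, smaller shares than the 10.7% and 3.73% of all genes tested, and none of these 3 passed the adjusted test. *Ctsl*, the lysosomal protease cathepsin L, was at 219 and 256 TPM in the control pair and 452 and 361 TPM in the KO-labelled libraries (log2 difference 0.77, adjusted p = 0.319 from limma). *Tjp1*, the junction scaffold ZO protein, was at 48.6 and 23.2 TPM against 72.8 and 74.1 TPM (log2 difference 1.10, adjusted p = 0.342 from limma). *Drd4*, a dopamine receptor gene, was at 8.96 and 11.2 TPM against 4.86 and 4.11 TPM (log2 difference -1.01, adjusted p = 0.343 from limma).

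Of the 6 other transcription factors, 4 lay above 0, against 69% of all genes tested. *Dmrt1*, which keeps Sertoli cells male and is also a spermatogonial gene, was at 58.0 and 134 TPM in the control pair and 106 and 89.4 TPM in the KO-labelled libraries. *Nr0b1* and *Sox8*, the partner of *Sox9*, likewise had their lowest and highest values in controls 1 and 2. *Nr5a1*, the steroidogenic factor shared by Sertoli and Leydig cells, went the opposite way, at 86.1 TPM in control 1 against 35.2, 36.3 and 36.8 TPM elsewhere. *Rhox8*, a homeobox neighbour of *Rhox5*, was at 54.9 and 96.2 TPM against 127 and 119.9 TPM, without overlap (log2 difference 0.76, adjusted p = 0.379 from limma).

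Of the 12 secreted factors, 10 were tested and 9 lay above 0, against 69% of all genes tested. *Aard* was the highest of them, at 377 and 951 TPM in the control pair and 762 and 664 TPM in the KO-labelled libraries. The cystatins *Cst9* and *Cst12* were lowest in control 1, at 198 and 254 TPM, and the other 3 libraries ranged from 314 to 394 TPM and from 497 to 577 TPM. *Dhh*, the hedgehog ligand that Sertoli cells send to Leydig cells, was at 5.88 and 13.8 TPM in the control pair and 12.0 and 11.5 TPM in the KO-labelled libraries. *Inhbb*, the beta B subunit with which the product of *Inha* forms inhibin B, was at 5.35 and 6.19 TPM against 11.3 and 9.02 TPM, without overlap (log2 difference 0.72, adjusted p = 0.421 from limma). *Inhba* and *Gdnf*, the stem cell niche factor, were under the filter. *Trf*, transferrin, was at 127 TPM in control 1 and 6.07 TPM in control 2, with 86.7 and 86.6 TPM in the KO-labelled libraries, and *Kitl*, the KIT ligand, at 24.4 and 6.15 TPM against 14.9 and 12.8 TPM.

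Of the 9 junction and cytoskeleton genes, 7 were tested and 4 lay above 0, against 69% of all genes tested. *Vim*, *Cdh2* and *Gja1*, the intermediate filament, cadherin and connexin genes that many somatic cells share, were all highest in control 1 and lowest in control 2. *Espn*, an actin bundler of the ectoplasmic specialization, was at 26.2 and 65.4 TPM in the control pair and 45.1 and 34.7 TPM in the KO-labelled libraries, the order of *Amh*. *Krt18*, a keratin of immature Sertoli cells, and *Cldn5* did not reach a mean of 1 TPM. Of the 5 remaining Sertoli-enriched genes, 4 were tested, and *Mro* and *Tsx* were higher without overlap and without passing the test.

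Of 9 genes for receptors, cofactors and signalling partners of the members, 8 lay above 0, against 69% of all genes tested. In either direction 0 passed, against 0% of all. Their median log2 difference was 0.25, beside 0.28 over all genes tested. *Amhr2*, the receptor for AMH, was at 81.2 and 154 TPM in the control pair and 128 and 109 TPM in the KO-labelled libraries, in the same order as *Amh* itself. *Zfpm2*, the cofactor of GATA4, was at 5.06 and 1.44 TPM in the control pair and 3.00 and 3.39 TPM in the KO-labelled libraries, highest in control 1 like *Gata4*. *Zfpm1*, the cofactor of GATA1, spanned only 13.7 to 18.3 TPM. *Tgfbr3*, the betaglycan co-receptor of inhibin, was at 41.3 TPM in control 1 and 0.21 TPM in control 2, with 9.13 and 14.2 TPM in the KO-labelled libraries. Of the 6 GATA family genes, *Gata1*, *Gata4* and *Gata6* were tested, with *Gata6* at 2.85 and 4.59 TPM against 5.20 and 4.47 TPM, and *Gata5* was listed at 0 in every library.

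**Figure D3:**
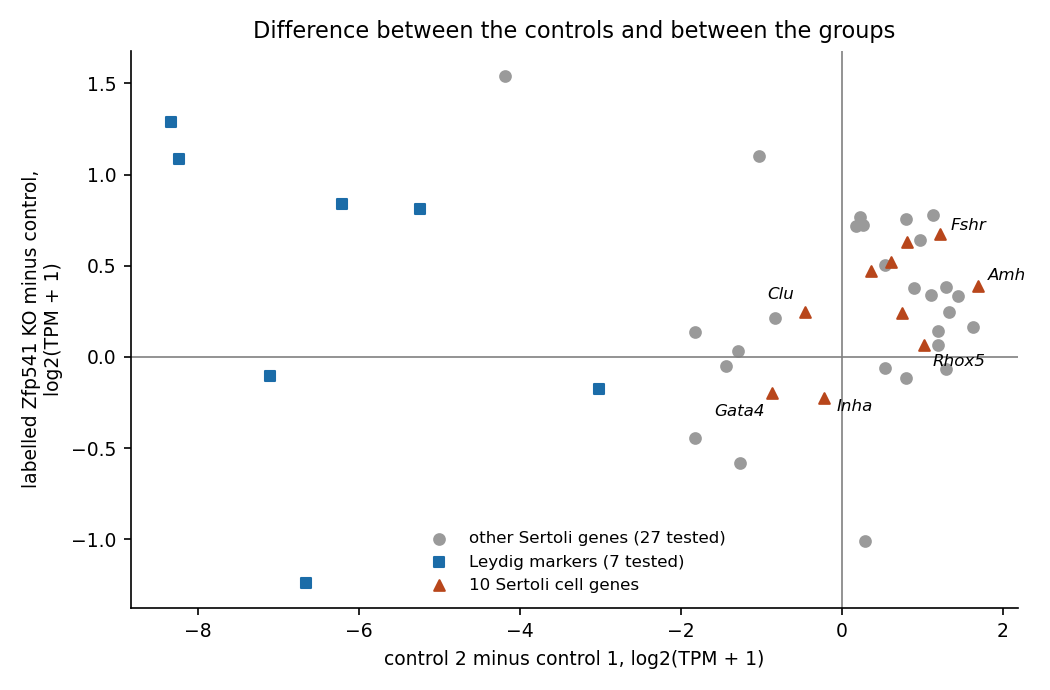
Each point is a gene, with the difference of control 2 from control 1 on the x axis and the difference of the KO-labelled libraries from the controls on the y axis, both in log2(TPM + 1). Of the 10 Sertoli cell genes, 7 lie to the right of 0, *Amh* farthest at 1.69, while all 7 Leydig markers lie to the left, between -8.33 and -3.01.

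Leydig cell and macrophage markers, from cells that the sort could hold, differed between the controls by far more than the Sertoli cell genes. All 7 Leydig cell markers were highest in control 1 and lowest in control 2, with a summed level of 3640 and 19.4 TPM in the control pair and 399.7 and 618 TPM in the KO-labelled libraries, a span of 188-fold, and *Lhcgr* was listed at 0 in control 2. The 9 macrophage markers were all lowest in control 2, summing to 2721 and 31.7 TPM in the control pair and 2325 and 1705 TPM in the KO-labelled libraries. The sum of the 10 Sertoli cell genes spanned 1.42-fold over the same libraries. In control 2, where Leydig and macrophage markers were near 0, the Sertoli cell genes other than *Clu*, *Inha* and *Gata4* were above their level in control 1, by up to 4.85-fold (*Fshr*). The 7 peritubular myoid markers summed to 59.1 and 67.6 TPM in the control pair and 67.3 and 56.4 TPM in the KO-labelled libraries. Of these sums, *Myl9* held 37.2 to 48.7 TPM. Over the 4 myoid markers tested, the median difference of control 2 from control 1 was 0.047 on the log2(TPM + 1) scale. Single markers ran from -0.38 in *Des* to 1.37 in *Acta2*, and the median of the Sertoli cell genes was 0.68. The 5 endothelial markers summed to 1.86 to 9.23 TPM. The red blood cell markers, which bear on *Gata1*, summed to 21.2 to 281.2 TPM, highest in the second KO-labelled library, where *Gata1* was neither highest nor lowest. That peak was *Hba-a2*, at 243.64 TPM there and 0 in the other libraries. Its counterpart *Hba-a1* was at 0 in that library and at 17.11 to 62.05 TPM in the others. The part of these cells in the values of the Sertoli cell genes was not tested.

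**Figure D4:**
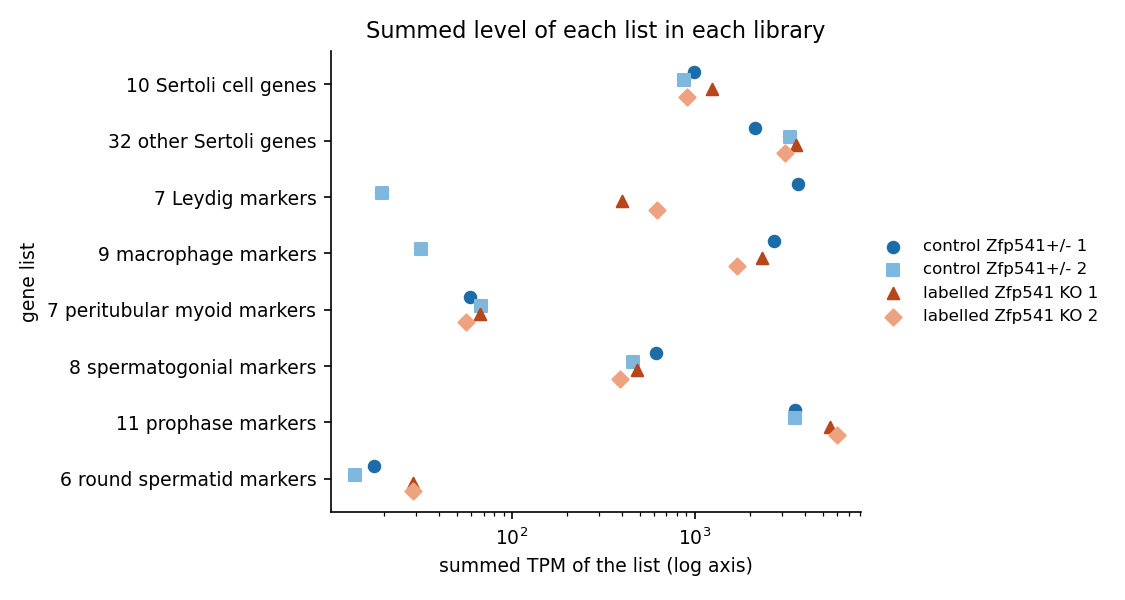
Summed TPM of the gene lists named on the y axis, on a log x axis, with 1 point per library. The 10 Sertoli cell genes lie between 877 and 1245 TPM in all 4 libraries, while the Leydig markers spread from 19.4 to 3640 TPM and the macrophage markers from 31.7 to 2721 TPM.

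Germ cell markers set the scale of the sorted population. The 11 markers of meiotic prophase summed to 3539.6 and 3547 TPM in the control pair and 5489.5 and 5984 TPM in the KO-labelled libraries. Of these sums, *Sycp3* held 1108 and 1263 TPM, then 2093 and 2196 TPM. The median log2 difference of the 11 prophase markers was 0.73, beside 0.28 over all genes tested. Without overlap, 6 of the 11 were higher and 1 lower, against 38.6% and 12.1% of all. At an unadjusted p under 0.05, limma called 5 higher and 0 lower, against 10.7% and 3.73%. At an FDR of 0.05, 0 passed in either direction, against 0% of all. In log2 difference, 7 of the 11 lay above 0 and 4 below, against 69% of all genes tested above 0. *Ccna1*, 1 of the 4 below, was at 48.2 and 4.83 TPM in the control pair and 2.20 and 1.80 TPM in the KO-labelled libraries. The 8 spermatogonial markers summed to 390.3 to 612 TPM, and the 6 round spermatid markers to 13.9 to 28.7 TPM, with *Prm1* listed at 0 in 3 of the 4 libraries. Of the round spermatid sums, *Spaca1* held 7.34 and 13.9 TPM in the control pair and 26.98 and 26.56 TPM in the KO-labelled libraries. Of the spermatogonial sums, 1 marker held 361.8 of the 612 TPM in control 1 and 153.9 TPM in control 2. In the KO-labelled libraries that marker held 93.4 and 94.7 TPM. The Sertoli cell sum, taken over the fixed list alone, was below that of the prophase markers in every library. It was above that of the spermatogonial markers in every library with *Clu* and below it in every library without *Clu*. Such orders depend on which genes are listed and give no share of Sertoli cell RNA. The further 32 genes associated with Sertoli cells, left out of that sum, reached 2134 and 3305 TPM in the control pair. In the KO-labelled libraries they summed to 3575 and 3092 TPM. *Rec8*, the gene that drives the sorted GFP, was itself at 7.05 and 27.9 TPM in the control pair and 27.7 and 19.4 TPM in the KO-labelled libraries, lowest in control 1 like 7 of the Sertoli cell genes.

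Beyond the lists, the profile nearest to the mean centred profile of the 10 members over the 4 libraries was that of *Gm715*, at a Euclidean distance of 0.27 in log2(TPM + 1), followed by *Src*, *Pbx2*, *Piga* and *Rhpn2* at 0.27 to 0.29. *Pbx2*, a homeobox cofactor gene, was at 34.5 and 51.4 TPM in the control pair and 72.3 and 46.6 TPM in the KO-labelled libraries. Of 7252 genes whose level spanned at least 1 on this scale, 206 came within 0.5 of the same profile.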

How the data were processed

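RNA of sorted GFP-positive cells was measured in 2 *Zfp541*+/- and 2 *Zfp541*KO samples, grouped by their titles, with 1 library each. The authors trimmed 75-nt single-end reads (Trim Galore 0.5.0, cutadapt 1.16), aligned them to UCSC mm10 with STAR 2.6.0a and deposited gene TPM from RSEM 1.3.1, per the file headers and the submitters' processing notes. Strand use in counting is not given in the sources used here. TPM keeps no depth, so no counting interval was possible.

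Here log2(TPM + 1) of genes averaging 1 TPM or more was fitted by genotype with limma 3.58.1 (R 4.3.3), with a mean-variance trend, two-sided, adjusted by Benjamini-Hochberg over all genes tested, without a replicate block. Simulated data had the same group sizes, but genes varied independently and with the same spread in both groups, unlike the libraries here. There, estimates and intervals were near the truth. The smallest change simulated was larger than any member's difference, so calling at the members' size was not tested. Recovery of large changes in few genes missed the requirement first set, which was then changed. P-values measure the spread between 4 libraries. Loci came from GENCODE M21. The members and lists were chosen with earlier results of these data known. Named were all members, listed marker genes, *Zfp541*, *Rec8*, and the 5 nearest profiles of span at least 1, while 1 listed gene is not reported here by name. *Wt1os* was added after its values were seen. In each file, 27 rows carry dates for symbols and were left unnamed. Alternatives are given in the closing section.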

Additional observations from a re-analysis of the deposited data

How the results depend on the processing

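With replicate number as a block, 0 genes passed an FDR of 0.05 in either direction, and no call among the Sertoli cell genes changed. The deviations of same-numbered libraries had a correlation of -0.16 across genes. With so few libraries in each group, this weak correlation cannot decide whether the numbers pair the samples. The crossed replicate block, a setting chosen after seeing the data, called 7 genes higher and 80 lower, and 0 of the 10 Sertoli cell genes.

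With median-ratio scaling the members' median log2 difference was -0.0068 (main 0.32), their log2 summed TPM difference was -0.15 (main 0.18), and *Gata1* (-0.087), *Clu* (-0.090) and *Rhox5* (-0.27) fell below 0. The median of all genes tested was then -0.015 (main 0.28). Quantile normalization put *Rhox5* at -0.13. Pseudocounts of 0.1 and 5 changed no sign and no call among the members. No filter, a filter at 5 TPM, which removed *Fshr*, and a fit without the trend leave the differences as they are by construction, and changed no call.

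Leaving out each library in turn, genes called higher ranged from 0 to 5759, genes called lower from 0 to 1981, members called from 0 to 3, the members' median from 0.14 to 0.63, and their log2 summed TPM difference from -0.050 to 0.41. *Amh* ranged from -0.45 to 1.23, *Gata4* from -0.63 to 0.24, *Gata1* from -0.13 to 0.61, *Rhox5* from -0.45 to 0.57, and *Clu* from -0.028 to 0.52. Those that kept their sign moved too, *Fshr* between 0.063 and 1.29, *Sox9* between 0.23 and 1.04, *Cldn11* between 0.21 and 0.82, *Wt1* between 0.29 and 0.65, and *Inha* between -0.36 and -0.096. The high counts came from fits whose spread rested on the close pair labelled *Zfp541* KO alone. Without either library of that label, 0 genes passed. The cause of the changes of sign was not tested. Depth limits are unknown, since TPM keeps none.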
